A study of Bos taurus with 8 samples.

Results

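Apoptosis removes most ovarian follicles in a process called atresia, and granulosa cells are among the cells that die. A set of 39 genes of apoptosis, death receptor signalling and the p53 response was followed in the granulosa cells of 8 cows, 4 High A4 and 4 Control. A gene was a member if it was on this list of symbols and had a probe set on the array annotated with that single symbol, and the probe set with the highest mean over the 8 arrays stood for the gene. This gave 37 of the 39 genes, out of 18457 probe sets with a single symbol and 26773 probe sets in all. BIRC2 had no probe set under its own symbol, and the probe set of BID carries that symbol for 2 gene entries, so both genes were not analysed here. All 37 symbols matched the gene entries of the bovine assembly ARS-UCD2.0.

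Apoptosis runs along an intrinsic and an extrinsic route. In the intrinsic route BH3-only proteins neutralize the pro-survival members of the BCL2 family or switch on BAX and BAK1, which open the outer mitochondrial membrane and release cytochrome c. Cytochrome c and APAF1 form the apoptosome that activates caspase-9. In the extrinsic route ligands such as FASLG bind death receptors, and adaptors such as FADD activate caspase-8. The transcription factor p53 raises several genes of both routes and is held down by MDM2 and MDM4. In the ovary, survival of granulosa cells depends on gonadotropins, estrogen and growth factors, and the balance between BCL2 and BAX is often taken as a measure of atresia.

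Granulosa cells, both mural and cumulus, were collected from the estrogen-active dominant follicle of 4 High A4 cows and 4 Control cows, with 1 Affymetrix Bovine Gene 1.0 ST array per cow. High A4 cows had follicular fluid with a mean androstenedione (A4, an androgen) content of 356 ng/mL, and the mean of the Control cows, called low A4 in the sample labels, was 1.9 ng/mL. All 8 were Red Angus and MARC III crossbred beef cows that had received gonadotropin releasing hormone, an intravaginal progesterone device (CIDR) for 7 days and prostaglandin at its removal, and their ovaries were removed about 36 hours later. The groups were selected by the A4 content of the follicle and were not made by a treatment, the age of the cows is not given in the sources used here, and the labels give a cell purity of at least 94%.

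The deposited values are normalized intensities on a linear scale in arbitrary units (a.u.), where 100 is the noise threshold of the study. They can be compared between cows for 1 gene but not between genes. The limma fit on log2 values took the 10120 probe sets whose mean exceeded 100 in at least 1 group, with p adjusted over all of them by the Benjamini-Hochberg method. Members below the threshold in both groups were read from the same fit over all 26773 probe sets. An adjusted p under 0.05 is called a pass, and the fit to which each adjusted p belongs follows from the level of the gene unless it is named. The number of arrays limits the precision.

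The arrays differed beyond these genes. The median log2 fold change, High A4 over Control, was -0.16 over the 10120 probe sets above noise and 74.3% of them were lower in High A4, while over the 17238 probe sets with a mean of the 8 arrays at or under 100 it was 0.11. Of 12 granulosa cell markers (FSHR, FOXL2, AMH, CYP19A1 and others) 12 were above noise and 0 passed in limma in either direction, with 0 at an unadjusted p under 0.05. Their summed intensity was 29189.9 to 31438 in High A4 and 27838 to 29538 in Control. Markers of other cells were higher in part in High A4. Of 4 theca cell markers 2 rose. Of 12 stromal markers 2 rose among those above noise and 4 in the fit over all probe sets. Among the stromal ones OGN (mean 107 in High A4 and 37.5 in Control) was above noise through High A4 alone, where it is higher. The same held for ALDH1A1 (189 and 53.2) among the theca markers that rose. Of 9 endothelial markers 7 were higher, 1 was above noise and did not pass, and 1 rose in the fit over all probe sets (EMCN). For comparison, 1.56% of the probe sets above noise rose, and 8.47% rose in the fit over all probe sets. Most of the endothelial markers had a mean at or under 100, where 62.7% of probe sets were higher and 12.3% passed as higher. The summed intensity of the stromal markers was 2089 to 3869 in High A4 and 883 to 2866 in Control, that of the endothelial markers 363 to 413 in High A4 and 272 to 333 in Control, and that of the leukocyte markers 459 to 1025 in High A4 and 417 to 785 in Control. No leukocyte marker had a group mean above the noise threshold. The part of these cells in the values below was not tested.

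None of the members above noise passed, and BCL2 alone passed in the fit over all probe sets. Of the 37 members 20 were above the noise threshold in at least 1 group, and 0 rose and 0 fell at an adjusted p under 0.05 from limma, where 1.56% of all probe sets tested rose and 0.623% fell. At an unadjusted p under 0.05, 1 of the 20 was higher (TNFRSF1A) and 2 were lower (APAF1 and TRADD), where 4.83% and 17.1% of the probe sets were higher and lower. In the fit over all probe sets 1 of the 37 rose (BCL2) and 0 fell, where 8.47% rose and 1.64% fell. At an unadjusted p under 0.05 in that fit, 2 were higher and 1 was lower, where 15.7% and 9.24% of all probe sets were. The study used a p under 0.05 from analysis of variance and a fold change above 1.5, and its text does not say whether that p was adjusted. With these thresholds on the unadjusted limma p, 1 of the 20 members above noise was higher (TNFRSF1A) and 0 were lower. Of all probe sets above noise 3.2% were higher and 6.23% lower by these thresholds. By sign alone 13 of the 37 were higher and 24 lower, where 49.3% and 50.7% of all probe sets were, and of the 20 above noise 6 were higher and 14 lower, where 25.7% and 74.3% were. Of the 18 members with a mean of the 8 arrays at or under 100, 7 were higher and 11 lower, where 62.7% and 37.3% of such probe sets were. The log2 fold changes of the 37 ran from -0.52 (APAF1) to 0.62 (BCL2). In bulk RNA, less RNA per cell and fewer cells of a type cannot be told apart.

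**Figure D1:**
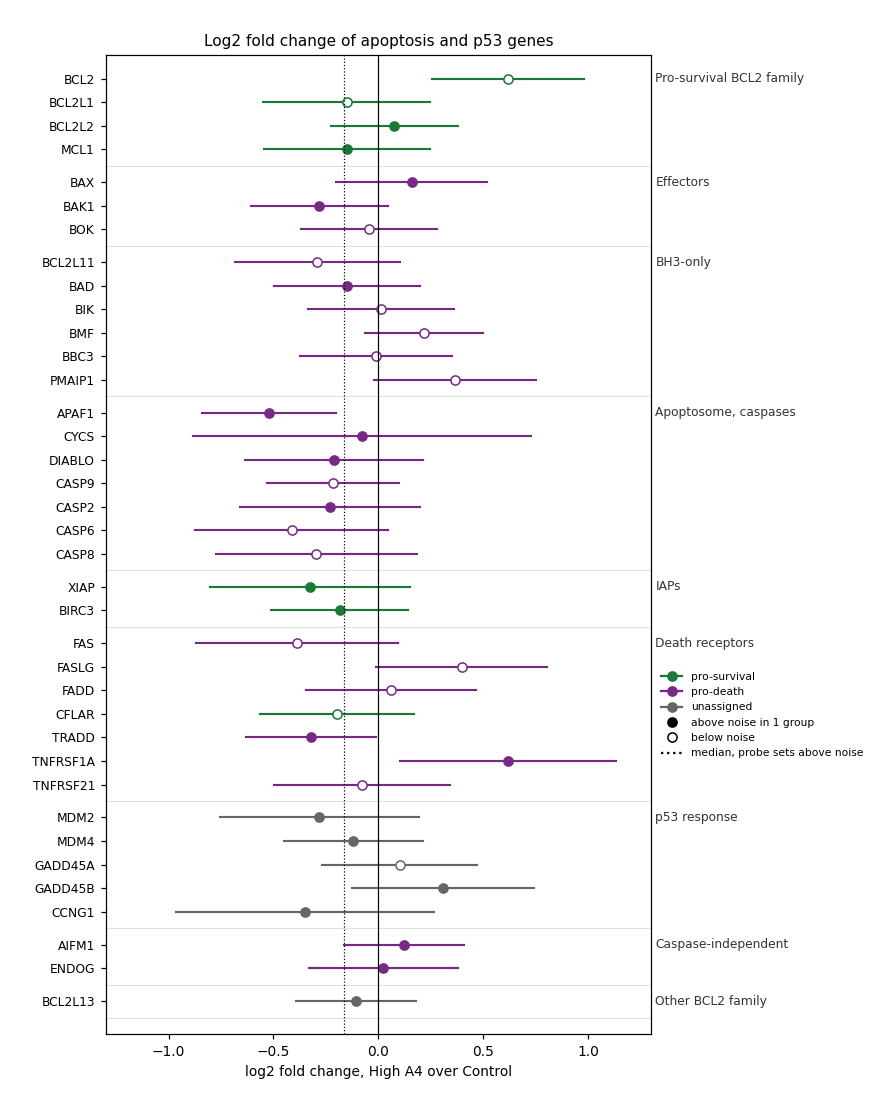
Log2 fold change of the 37 members, High A4 over Control, on the horizontal axis, with the 95% confidence interval from limma as a line (n = 4 cows per group) and the genes grouped by role. Filled points are genes above the noise threshold in at least 1 group, and the dotted line marks the median of the probe sets above noise at -0.16. The intervals of BCL2, APAF1, TNFRSF1A and TRADD leave out 0, and those of the other members hold it.

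Pro-survival members of the BCL2 family hold BAX and BAK1 in check. BCL2, the founding member, had intensities of 90.7, 96.8, 90.1 and 112 in the 4 High A4 cows, against 55.3, 57.1, 82.2 and 61.6 in the 4 Control cows. Every High A4 cow lay above every Control cow. The mean was 97.4 ± 10.3 in High A4 and 64.1 ± 12.4 in Control (± SD, 4 cows a group), a fold change of 1.53 with a 95% interval of 1.19 to 1.97 (log2 fold change 0.62, SE 0.16, limma over all probe sets, adjusted p = 0.038). Both means were under the noise threshold, and among the 17238 probe sets with a mean at or under 100, 12.3% passed as higher and 1.35% as lower. In 16.1% of these probe sets every High A4 cow was above every Control cow, and in 3.25% every one was below. The pass of BCL2 was lost under 12 of the 20 other settings, among them the omission of any single cow except Control replicate 3, with adjusted p up to 0.119 without Control replicate 2. A second, dimmer probe set of BCL2 had 37, 37.4, 33.7 and 42.7 in High A4 cows, against 33.6, 35, 35 and 30.1 in Control cows, with a log2 fold change of 0.17 (SE 0.13, limma adjusted p = 0.462).

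The other pro-survival members did not pass. MCL1, a short-lived protein that binds BAK1, had 151, 227, 189 and 188 in High A4 cows, against 244, 208, 229 and 158 in Control cows. The groups overlapped, and each had a single low cow. MCL1 averaged 189 ± 31.2 in High A4 and 210 ± 37.2 in Control (± SD, 4 cows a group), with a log2 fold change of -0.15 (limma adjusted p = 0.624), and its fold change had a 95% interval of 0.686 to 1.19. BCL2L1, which encodes BCL-XL, was 48.3 to 65.1 in High A4 and 44 to 69.3 in Control (log2 fold change -0.15, adjusted p = 0.64). BCL2L2, which encodes BCL-W, was 116 to 149 in High A4 and 116 to 142 in Control (log2 fold change 0.076, adjusted p = 0.751). BCL2L13, a BCL2-like protein of the outer mitochondrial membrane whose part in apoptosis is less settled, was 216 to 274 in High A4 and 238 to 277 in Control (log2 fold change -0.11, adjusted p = 0.635).

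BAX and BAK1 are the effectors that open the mitochondrial membrane, and BOK is a related protein. BAX had 160.5, 225, 190.3 and 181 in High A4 cows, against 154, 164, 148 and 215 in Control cows. A single Control cow, replicate 4, was as high as the upper High A4 cows, and the groups overlapped. The mean of BAX was 189 ± 26.9 in High A4 and 170 ± 30.6 in Control (± SD, 4 cows a group), with a log2 fold change of 0.16 (limma adjusted p = 0.57) and a 95% interval of the fold change of 0.869 to 1.43. BAK1 had 125, 119, 94.5 and 120.0 in High A4 cows, against 129, 122, 142 and 164 in Control cows. High A4 replicate 1 alone exceeded the lowest Control cow, and the log2 fold change was -0.28 (adjusted p = 0.28). BOK was under the noise threshold in all 8 cows, at 40.2 to 55.5 in High A4 and 44.4 to 53.4 in Control (log2 fold change -0.045, adjusted p = 0.88).

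The log2 ratio of BAX to BCL2 was 0.82, 1.22, 1.08 and 0.69 in High A4 cows, against 1.48, 1.52, 0.85 and 1.81 in Control cows. The probe sets differ in brightness, so the level of the ratio has no meaning of its own and its difference between cows can be read. It averaged 0.95 ± 0.24 in High A4 and 1.41 ± 0.40 in Control (± SD, 4 cows a group), and Control replicate 3, with the highest BCL2 of its group, lay within the High A4 range. BCL2 was under the noise threshold in both group means, and the difference rests on its brighter probe set: the second one had a log2 fold change of 0.17, beside 0.16 for BAX. The ratio was described and not tested.

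BH3-only proteins start the intrinsic route, and 6 were measured. Of these 3 were higher and 3 lower, 0 passed in limma in either direction with 0 at an unadjusted p under 0.05, and 1 was above noise. PMAIP1, which encodes the p53 target NOXA, had 16.6, 22.8, 13.5 and 19.1 in High A4 cows, against 15.1, 12.2, 13.7 and 14.1 in Control cows. High A4 replicate 3 lay inside the Control range (log2 fold change 0.37, limma over all probe sets, adjusted p = 0.225). BMF, a protein held at the cytoskeleton in healthy cells, had 41.4, 40.9, 45 and 39.7 in High A4 cows, against 38.2, 36.1, 37 and 32.4 in Control cows. Its groups did not overlap, its spread between cows of a group was the smallest of the members (pooled SD of 0.091 on the log2 scale), and the log2 fold change was 0.22 (adjusted p = 0.319). BCL2 and BMF were the 2 members of 37 with every High A4 cow above every Control cow, and APAF1 and TRADD the 2 with every High A4 cow below, where this held for 11.2% and 5.71% of all probe sets. Among the 20 above noise it held for 0 upwards and 2 downwards, where 2.93% and 10.4% of probe sets did so, and TRADD was above noise in Control alone. BCL2L11, which encodes BIM, was 22.9 to 32 in High A4 and 28.1 to 44.5 in Control (log2 fold change -0.29, adjusted p = 0.342). BAD, which growth factor signalling inactivates by phosphorylation, was 86.6 to 133 in High A4 and 101 to 124 in Control (log2 fold change -0.15, adjusted p = 0.579). BIK (log2 fold change 0.013) and BBC3, which encodes PUMA (log2 fold change -0.012), were at or under 46.6 in every cow and had adjusted p of 0.97 and 0.974.

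**Figure D2:**
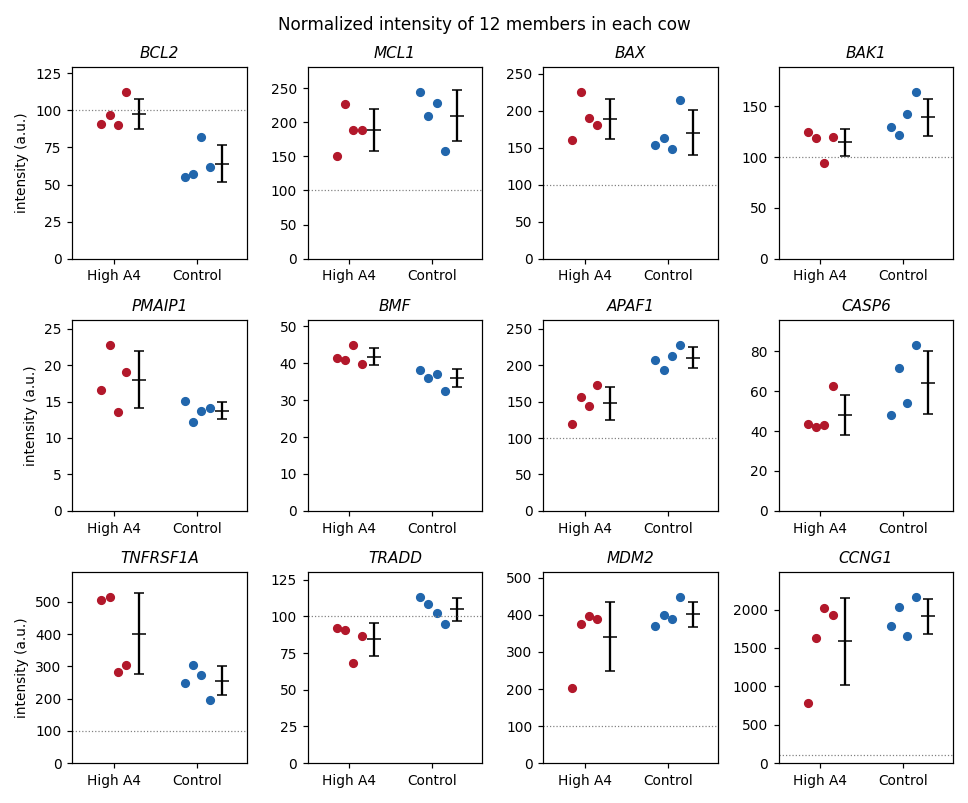
Normalized intensity in arbitrary units (vertical axis, from 0) of 12 members in each cow, with High A4 in red and Control in blue, the mean and SD in black (n = 4 cows each) and the noise threshold of 100 as a dotted line. BCL2 and BMF separate the groups upwards and APAF1 and TRADD downwards, and MDM2 and CCNG1 have a single low High A4 cow.

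Of the genes of the apoptosome and the caspases 7 of 7 were lower in High A4, where 50.7% of all probe sets were. In limma 0 passed, with 1 at an unadjusted p under 0.05 (APAF1). CASP9, CASP6 and CASP8 were under the noise threshold in both group means, and 37.3% of probe sets with a mean at or under 100 were lower. With the arrays centred on the median of the probe sets above noise, with quantile normalization or with cyclic loess, 6 of the 7 were lower and CYCS was higher. The median log2 fold change of the 7 was -0.23, or -0.22 over the 4 with a mean of the 8 arrays above 100, where all such probe sets had a median of -0.16 and 25% were higher and 75% lower. Over the other scalings the median lay between -0.31 and -0.071. APAF1, the scaffold of the apoptosome, had 119, 156, 144 and 173 in High A4 cows, against 208, 193, 212 and 228 in Control cows. Every High A4 cow was below every Control cow. The mean was 148 ± 22.6 in High A4 and 210 ± 14.4 in Control (± SD, 4 cows a group), a fold change of 0.698 with a 95% interval of 0.559 to 0.87 (log2 fold change -0.52, SE 0.14, unadjusted p = 0.00461, limma adjusted p = 0.0968). Relative to the median of the probe sets above noise the log2 fold change was -0.36. APAF1 passed with array weights (adjusted p = 0.0402) and without High A4 replicate 4 (adjusted p = 0.0374), and its adjusted p over all settings reached 0.235. In the fit over all probe sets APAF1 passed under the same settings and also with an offset of 50.

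CYCS, which encodes cytochrome c, varied most between cows of a group (pooled SD of 0.63 on the log2 scale). It had 104, 200.1, 297 and 322 in High A4 cows, against 205, 233, 344 and 149.5 in Control cows, and the groups overlapped (log2 fold change -0.078, adjusted p = 0.908). DIABLO, whose protein leaves the mitochondrion to block inhibitors of caspases, was 350.1 to 469 in High A4 and 387 to 658 in Control (log2 fold change -0.21, adjusted p = 0.511). CASP9, the caspase of the apoptosome, had 74.1, 56.2, 67.8 and 74.9 in High A4 cows, against 79.2, 82.4, 82.2 and 71.9 in Control cows. Its High A4 values were below 3 of the 4 Control cows (log2 fold change -0.22, adjusted p = 0.374). CASP2, a caspase linked to DNA damage, was 223 to 289 in High A4 and 199.6 to 372 in Control (log2 fold change -0.23, adjusted p = 0.48). CASP8, which death receptors activate, was 27.9 to 48.8 in High A4 and 35.3 to 56.2 in Control (log2 fold change -0.30, adjusted p = 0.43). CASP6, a caspase that cleaves lamins, had 43.7, 41.9, 43 and 62.7 in High A4 cows, against 48.3, 71.5, 54.2 and 83.3 in Control cows. High A4 replicate 4 was the single High A4 cow above the lowest Control cow (log2 fold change -0.41, adjusted p = 0.248).

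Inhibitors of apoptosis proteins (IAPs) block caspases or tie death receptors to survival signals. XIAP, the direct inhibitor of caspases, had 136, 155, 212 and 255 in High A4 cows, against 187, 228, 234 and 281 in Control cows. High A4 replicates 1 and 2 were below every Control cow, and replicates 3 and 4 were inside the Control range. XIAP had a log2 fold change of -0.33 (limma adjusted p = 0.377), and -0.18 without High A4 replicate 1. BIRC3, which encodes cIAP2 and regulates signals from the TNF receptor, was 179.6 to 234 in High A4 and 203 to 275 in Control (log2 fold change -0.18, adjusted p = 0.462).

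Among the death receptor genes, TNFRSF1A, the main receptor of tumour necrosis factor, had the largest fold change above noise and did not pass. It had 505, 515, 282 and 305 in High A4 cows, against 249.6, 304, 272 and 196 in Control cows. High A4 replicates 1 and 2 stood far above all Control cows, and the other 2 High A4 cows were near the top of the Control range or just above it. The mean was 402 ± 125 in High A4 and 255 ± 45.3 in Control (± SD, 4 cows a group), a fold change of 1.53 with a 95% interval of 1.07 to 2.2 (log2 fold change 0.62, SE 0.23, unadjusted p = 0.0238, limma adjusted p = 0.175). The summed leukocyte markers were 1025, 576, 493 and 459 in High A4 replicates 1 to 4, against 482, 450.0, 785 and 417 in the Control replicates. The summed theca markers were 4411, 2409, 1678 and 2099 in High A4, against 1437, 1481, 1053 and 656 in Control. Both sums were highest in the 2 High A4 cows with high TNFRSF1A, apart from the leukocyte sum of Control replicate 3. The summed endothelial markers were also highest in these 2 cows, at 398 and 413. The summed stromal markers were 2842, 3482, 3869 and 2089 in High A4 replicates 1 to 4. They were highest in replicate 3, where TNFRSF1A was lowest of the High A4 cows. The part of these cells in the result was not tested. TRADD, the adaptor that TNFRSF1A recruits, had 92, 90.5, 68.1 and 86.5 in High A4 cows, against 113, 108, 103 and 94.8 in Control cows. All High A4 cows were below all Control cows, and the log2 fold change was -0.32 (standard error 0.14, adjusted p = 0.216). TRADD passed with array weights (adjusted p = 0.0388) and under none of the other settings run. It averaged 84.3 in High A4 and 105 in Control, so it counted as above noise through the Control group alone, the group in which it is higher, and its mean over the 8 arrays was 94.5.

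FAS, a death receptor with a known role in granulosa cell death, had 51.4, 69, 37.2 and 36.3 in High A4 cows, against 57.6, 62.6, 52.8 and 73.8 in Control cows. High A4 replicates 1, 3 and 4 were below every Control cow and replicate 2 was above 3 of them (log2 fold change -0.39, limma over all probe sets, adjusted p = 0.299). Its ligand FASLG had 21.7, 28.5, 25.8 and 20.1 in High A4 cows, against 20.9, 13.4, 19.5 and 19.6 in Control cows, and was far under the noise threshold in all 8 (log2 fold change 0.40, adjusted p = 0.211). The adaptor FADD was 61.2 to 108 in High A4 and 67.1 to 85.8 in Control (log2 fold change 0.059, adjusted p = 0.871), and its sign turned when High A4 replicate 1 was left out. CFLAR, which encodes the caspase-8 decoy FLIP and counts as pro-survival, was 65.1 to 81.2 in High A4 and 64.9 to 102 in Control (log2 fold change -0.20, adjusted p = 0.492). TNFRSF21, which encodes death receptor 6, was at or under 27.1 in every cow (log2 fold change -0.079, adjusted p = 0.833).

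**Figure D3:**
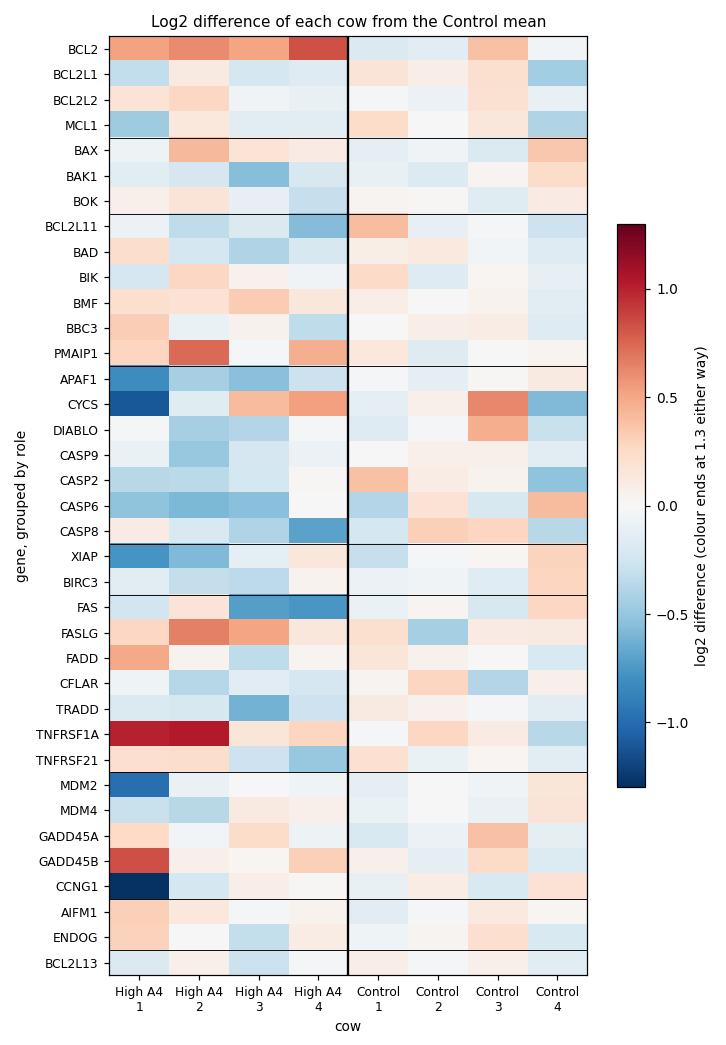
Log2 difference of each member (rows, grouped by role) in each cow (columns) from the mean of the Control cows, with higher values in red and lower values in blue. High A4 replicate 1 is dark blue for CYCS, MDM2 and CCNG1 and dark red for TNFRSF1A and GADD45B, and BCL2 is red in all 4 High A4 cows.

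The p53 response genes did not pass, and the values of some of them rested on 1 cow. MDM2, the ubiquitin ligase that degrades p53 and is itself a p53 target, had 203, 376, 398 and 388 in High A4 cows, against 370.5, 398, 389 and 448 in Control cows. High A4 replicate 1 was low and the other High A4 cows were within the Control range. MDM2 had a log2 fold change of -0.28 (limma adjusted p = 0.441), and -0.049 without that cow (adjusted p = 0.84). CCNG1, the p53 target cyclin G1, had 781, 1624, 2023 and 1927 in High A4 cows, against 1784, 2039, 1661 and 2164 in Control cows. The same cow was low, and the log2 fold change of CCNG1 was -0.35 (adjusted p = 0.457) with it and -0.040 without it (adjusted p = 0.898).

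MDM4, the partner of MDM2 that blocks p53 without degrading it, was 275 to 382 in High A4 and 332 to 397 in Control (log2 fold change -0.12, adjusted p = 0.644). GADD45B, a stress gene also driven by NF-kappaB, had 2063, 1209, 1173 and 1436 in High A4 cows, against 1206, 1056, 1369 and 1024 in Control cows. High A4 replicates 1 and 4 were above every Control cow (log2 fold change 0.31, adjusted p = 0.361), and without replicate 1 the log2 fold change of GADD45B was 0.13. GADD45A, a p53 target induced by DNA damage, was 36.1 to 45.1 in High A4 and 33 to 49.1 in Control (log2 fold change 0.10, adjusted p = 0.744). High A4 replicate 1 was the lowest cow of its group in 40.8% of the probe sets above noise and for 10 of the 37 members, and it was the highest of its group in 26.8% of those probe sets and for 13 of the 37. Control replicate 4 was the lowest cow of its group in 32.1% of the probe sets above noise and for 19 of the 37 members. The 37 members include genes under the noise threshold, so these counts and shares cover unlike sets and cannot be compared directly.

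AIFM1 and ENDOG encode mitochondrial proteins that can reach the nucleus and take part in DNA breakdown without caspases. AIFM1 was 261 to 328 in High A4 and 239 to 289 in Control. Its log2 fold change was 0.12 (limma adjusted p = 0.581), and the 95% interval of the fold change was 0.893 to 1.33. ENDOG was 131 to 199.7 in High A4 and 142 to 188 in Control (log2 fold change 0.022, adjusted p = 0.94). A second probe set of ENDOG, dimmer than the first, had a log2 fold change of -0.30 (adjusted p = 0.22 over all probe sets), so the 2 probe sets of the gene disagreed in sign.

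The pro-survival and the pro-death genes were then set side by side. The 7 pro-survival genes measured were BCL2, BCL2L1, BCL2L2, MCL1, XIAP, BIRC3 and CFLAR, and the 24 pro-death genes were the effectors, the BH3-only genes, the apoptosome and caspase genes, the death receptor genes other than CFLAR, AIFM1 and ENDOG, while MDM2, MDM4, GADD45A, GADD45B, CCNG1 and BCL2L13 were put on neither side. Of the pro-survival genes 2 were higher and 5 lower in High A4, with a median log2 fold change of -0.15. Of the pro-death genes 9 were higher and 15 lower, with a median of -0.078. Centred on the median of the probe sets above noise, the medians turned to 0.0086 for the pro-survival and 0.082 for the pro-death genes. This centring was chosen after seeing the data and shifts every gene alike, also those under the noise threshold. Probe sets with a mean at or under 100 had a median of 0.11 before it. Over all probe sets 50.7% were lower, with a median of -0.0063. The 4 pro-survival and 10 pro-death genes with a mean of the 8 arrays above 100 had medians of -0.17 and -0.11, beside -0.16 over all such probe sets. The pro-survival median minus the pro-death median was -0.073. This difference turned to 0.082 with quantile normalization, to 0.066 with cyclic loess and to 0.056 without High A4 replicate 1, so the data give it no stable sign.

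By cow, the mean deviation of the pro-survival genes from the Control mean was -0.15, -0.018, -0.070 and 0.056 on the log2 scale in High A4 replicates 1 to 4, against -0.020, 0.012, 0.058 and -0.050 in the Control replicates. For the pro-death genes it was -0.0025, 0.014, -0.17 and -0.099 in High A4, against 0.025, 0.0021, 0.060 and -0.087 in Control. The difference between the sides was -0.15, -0.033, 0.10 and 0.16 in the High A4 cows, against -0.045, 0.0096, -0.0021 and 0.037 in the Control cows. The mean of this difference was 0.020 in High A4 with an SD of 0.14, and the SD was 0.034 in Control, whose mean is 0 by construction (n = 4 cows each). All Control cows lay inside the range of the High A4 cows. High A4 replicate 1 lay below the Control range, and replicates 3 and 4 lay above it. The sign of the difference does not show which side moved. Replicate 1 had a low pro-survival mean (-0.15) and a pro-death mean of -0.0025. Replicate 3 had low means on both sides, with the pro-death mean lower (-0.17 against -0.070). High A4 replicate 2 was within the Control range. No p is given for these scores, since the genes were chosen with earlier results of these cows known.

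**Figure D4:**
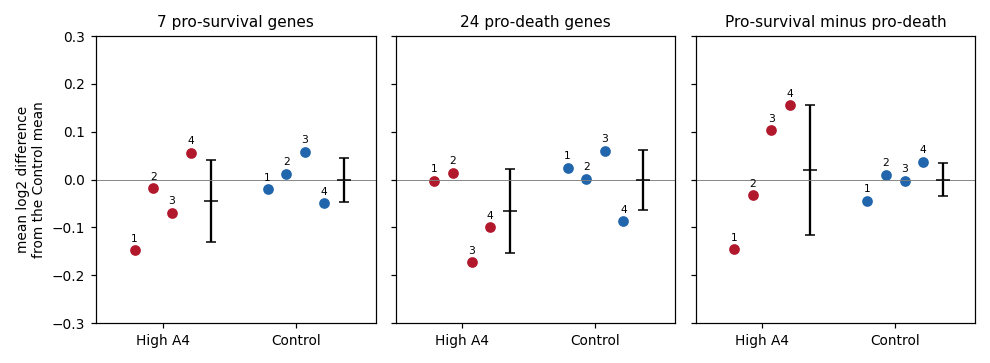
Mean log2 difference from the Control mean (vertical axis) over the 7 pro-survival genes, over the 24 pro-death genes, and the first minus the second, with 1 numbered point per cow, High A4 in red and Control in blue, and the mean and SD in black (n = 4 cows each). In the difference the High A4 cows run from -0.15 to 0.16 and the Control cows from -0.045 to 0.037.

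Further genes of these pathways outside the set were read from 2 lists. Of 29 other apoptosis genes measured 13 were above noise, of which 0 rose and 0 fell at an adjusted p under 0.05 from limma, and in the fit over all probe sets 0 passed as well. At an unadjusted p under 0.05 in that fit 5 of the 29 were higher and 4 were lower, where 15.7% and 9.24% of all probe sets were. Of 27 other p53 pathway genes 14 were above noise and 0 passed, while in the fit over all probe sets 2 of the 27 rose (EDA2R and PERP) and 0 fell, where 8.47% of all probe sets rose and 1.64% fell. At an unadjusted p under 0.05 in that fit 3 of the 27 were higher and 4 were lower, beside the same 15.7% and 9.24%. The 3 higher were EDA2R, PERP and TP63 (log2 fold change 0.56), all under the noise threshold. The 4 lower were CHEK1 (log2 fold change -0.93), CHEK2 (-0.56), DDB2 (-0.54) and ZMAT3 (-0.43). Of these, CHEK1, DDB2 and ZMAT3 were above noise and did not pass. EDA2R and PERP, the 2 that rose at an adjusted p under 0.05, have means under 100, where 12.3% of probe sets rose.

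EDA2R, a receptor of the TNF receptor family that p53 can induce, had 35.2, 43.9, 39.7 and 30.8 in High A4 cows, against 21, 18.9, 22.2 and 18.6 in Control cows. The groups did not overlap, and all 8 values were under the noise threshold. The mean of EDA2R was 37.4 ± 5.63 in High A4 and 20.2 ± 1.72 in Control (± SD, 4 cows a group), with a log2 fold change of 0.88 ± 0.15 (SE, limma adjusted p = 0.00407), and its adjusted p stayed at or under 0.0208 in every alternative in which it was tested. PERP, a p53 target at cell junctions, had 32.2, 30.4, 23.6 and 19.5 in High A4 cows, against 15.1, 18.1, 15.5 and 14.1 in Control cows. Its log2 fold change was 0.73 (adjusted p = 0.0296), and the pass of PERP was lost under 10 of the 19 other settings, with adjusted p up to 0.205 with quantile normalization. CDKN1A, the p53 target that encodes the cell cycle inhibitor p21, had 50, 67.5, 48.9 and 53.1 in High A4 cows, against 84, 80.6, 90.8 and 46.4 in Control cows. All High A4 cows lay below 3 of the Control cows and above Control replicate 4, and the log2 fold change of CDKN1A was -0.42 (adjusted p = 0.262), or -0.64 without that Control cow (adjusted p = 0.0446). With any other single cow left out CDKN1A did not pass, with log2 fold changes up to -0.32 and adjusted p up to 0.462.

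BNIP3, a mitochondrial BH3-like protein induced by hypoxia and active in mitophagy, had 1042, 902, 928 and 1076 in High A4 cows, against 516, 539, 965 and 464 in Control cows. Control replicate 3 was as high as the High A4 cows. BNIP3 averaged 987 ± 85.3 in High A4 and 621 ± 232 in Control (± SD, 4 cows a group), with a log2 fold change of 0.73 ± 0.22 (SE, limma adjusted p = 0.115), and without Control replicate 3 the log2 fold change was 0.96 (adjusted p = 0.00798). With any other single cow left out BNIP3 did not pass, with log2 fold changes down to 0.61 and adjusted p up to 0.301. DFFA, the inhibitor of the DNase that cuts DNA in apoptosis, had 205, 208, 171 and 216 in High A4 cows, against 304, 254, 266 and 274 in Control cows. The groups did not overlap, and the log2 fold change was -0.46 (standard error 0.13, adjusted p = 0.0984), or -0.30 relative to the median of the probe sets above noise. BIRC5, which encodes survivin, an IAP family member that works mainly in chromosome segregation, had 269.8, 229.8, 307 and 432 in High A4 cows, against 518, 513, 547 and 365 in Control cows. High A4 replicate 4 and Control replicate 4 crossed (log2 fold change -0.67, adjusted p = 0.128), and without High A4 replicate 4 the log2 fold change of BIRC5 was -0.85 (adjusted p = 0.0242). With any other single cow left out BIRC5 did not pass, with log2 fold changes up to -0.54 and adjusted p up to 0.316. BCL2L15, a BCL2-like gene near background on these arrays, was 13.499 to 28.4 in High A4 and 11.3 to 13.463 in Control (log2 fold change 0.76, adjusted p = 0.0502). Its groups did not overlap, by a narrow margin. Without High A4 replicate 2 the log2 fold change of BCL2L15 was 0.96 (adjusted p = 0.00753). With any other single cow left out BCL2L15 did not pass, with log2 fold changes down to 0.60 and adjusted p up to 0.121. Array weights called 328 probe sets above noise higher and 939 lower. Under that setting BNIP3, DFFA, BIRC5 and BCL2L15 passed (limma adjusted p = 0.0403, 0.0334, 0.0207 and 0.0369).

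**Figure D5:**
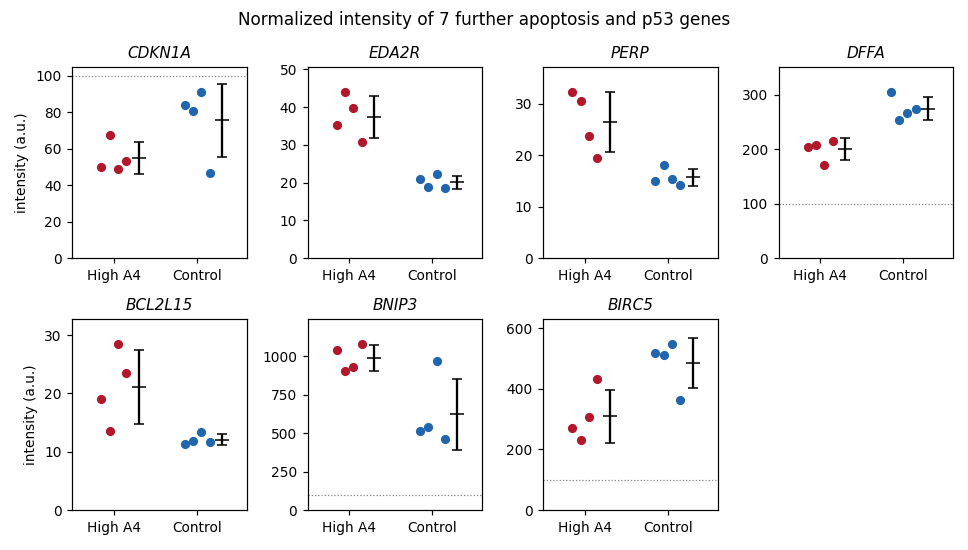
Normalized intensity in arbitrary units (vertical axis, from 0) of 7 further apoptosis and p53 pathway genes in each cow, with High A4 in red, Control in blue, the mean and SD in black (n = 4 cows each) and the noise threshold of 100 as a dotted line. EDA2R, PERP and, by a narrow margin, BCL2L15 separate the groups upwards and DFFA downwards. Control replicate 3 for BNIP3 lies among the High A4 values.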

How the data were processed

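Granulosa cell RNA of 4 High A4 and 4 Control cows was measured with 1 array per cow. The authors deposited normalized intensity values on a linear scale. Robust Multi-Array Averaging is named in the methods and Affymetrix Expression Console with GCRMA in the submitters' notes, so which of them made the values is not settled here, and no source used here gives versions. Cows were grouped by sample title. Log2 intensities were fitted with limma 3.58.1 (R 4.3.3), with Benjamini-Hochberg adjustment over all probe sets tested and a threshold of 0.05. The replicate numbers of the labels were checked for pairing and did not pair the cows. Members, lists, tests and alternatives were chosen with earlier results of these data known. Every member was named, with CDKN1A and the 6 further list genes of smallest unadjusted p under 0.05, since none of the lists passed above noise. The other p53 pathway genes at that p in the fit over all probe sets were listed without values by cow. Alternatives were the noise filter, scaling, offset, prior, array weights, analysis of variance, replicate block, probe set choice and each cow left out. The fit was tested on simulated data whose shifts were larger than any log2 fold change of the members. That test does not show whether changes as small as theirs would be found. Sequences were not used here, and no source used here names a batch.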

Additional observations from a re-analysis of the deposited data

Results flagged for a closer look

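In 4 of 88 groups of 4 cows, formed by the 37 members and 7 further genes, 1 cow stood far from the others of its group on the log2 scale (by Dixon's test of the gap to the nearest cow over the range), where chance flags about 1 in 20. MDM2 was 203 in High A4 replicate 1 and 376 to 398 in the other High A4 cows. CASP6 was 62.7 in High A4 replicate 4 and 41.9 to 43.7 in the others. FASLG was 13.4 in Control replicate 2 and 19.5 to 20.9 in the other Control cows, all under the noise threshold. BIRC5 was 365 in Control replicate 4 and 513 to 547 in the other Control cows.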

How the results depend on the processing

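The 37 members and 7 further genes gave 810 fold changes that kept direction and call under the alternatives, 45 that turned sign, 22 that lost a pass and 12 that gained one. With no paired cows (correlation of deviations of same-numbered cows -0.22 to 0.20), a replicate block gave 135 probe sets higher and 25 lower and 0 members passing, also over all probe sets.

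Of all probe sets, 158 were higher and 63 lower. These counts were 2267 and 440 with no noise filter, 68 and 17 with a mean of the 8 arrays above 100, 328 and 939 with array weights, 96 and 24 with analysis of variance, and 324 and 630 with an unadjusted p under 0.05 and a fold change above 1.5. Lower probe sets numbered 19 with quantile normalization and 18 with cyclic loess, and the share of calls that were higher was 89.8% and 91%, against 71.5%. Leaving out 1 cow gave 114 to 302 higher and 9 to 575 lower, the highest of both without High A4 replicate 4 and the fewest lower without Control replicate 2. Alternatives chosen after seeing the data were a noise threshold of 50 (498 and 192) and centring on the probe sets above noise (183 and 19, or 90.6% higher).

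Members passing above noise were 0, but 1 with no noise filter (BCL2), 2 with array weights (APAF1 and TRADD), 1 by unadjusted p with fold change (TNFRSF1A) and 0 to 1 with 1 cow left out (APAF1 without High A4 replicate 4). Over all probe sets 1 passed (BCL2), against 0 with arrays centred on the median, analysis of variance or the mean of all probe sets of a gene, 2 with an offset of 50, array weights or the unadjusted criterion, the last chosen after seeing the data, and 0 to 1 with 1 cow left out.

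The median of the members was -0.19 with arrays centred, -0.051 with cyclic loess, 0.041 with above-noise centring and -0.15 to -0.08 with 1 cow left out. That of the pro-survival genes was -0.024 with quantile normalization, -0.0060 with cyclic loess, 0.0086 with above-noise centring and -0.18 to -0.10 with 1 cow left out. That of the pro-death genes was 0.082 with above-noise centring and -0.16 to -0.05 with 1 cow left out. Their difference was 0.082 with quantile normalization, 0.066 with cyclic loess and -0.087 to 0.056 with 1 cow left out.

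The sign of genes with small changes turned. With arrays centred, BIK was -0.061, FADD -0.014 and ENDOG -0.052. With quantile normalization MCL1 was 0.0068, BIK -0.14, CYCS 0.045, MDM4 0.035, GADD45A -0.042 and BCL2L13 0.052. With cyclic loess MCL1 was 0.028, BIK -0.10, CYCS 0.10, MDM4 0.052, GADD45A -0.013 and BCL2L13 0.073. With array weights CYCS was 0.13, FADD -0.043 and ENDOG -0.12, and ENDOG was -0.14 as the mean of its probe sets. With above-noise centring BCL2L1 was 0.0086, MCL1 0.011, BOK 0.12, BAD 0.011, BBC3 0.15, CYCS 0.082, TNFRSF21 0.081, MDM4 0.041 and BCL2L13 0.055. That centring shifts genes under the noise threshold, such as BCL2L1, BOK, BBC3 and TNFRSF21, by the reference of those above it. With 1 cow left out the log2 fold change ran from -0.12 to 0.096 for BBC3, -0.071 to 0.096 for BIK, -0.12 to 0.040 for BOK, -0.28 to 0.26 for CYCS, -0.070 to 0.13 for ENDOG, -0.084 to 0.19 for FADD and -0.18 to 0.060 for TNFRSF21. The causes were not tested. Of the 37 members, 17 are under the noise threshold and close to background, and a difference that does not pass may be under what 4 arrays per group can show.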
